A study of Mus musculus with 12 samples.

Results

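The response of HT22 cells to loss of Ncoa4 mRNA was measured in growth medium without an iron chelator. HT22 is an immortalized mouse line that the labels describe as hippocampal neuron cells. The comparison set 3 libraries of cells given Ncoa4 siRNA (siNCOA4) against 3 libraries of cells given a control siRNA (siControl), all labelled normal iron, so 6 of the 12 RNA-seq libraries of the series entered it. The other 6 libraries came from cells given the same siRNAs and treated with deferoxamine (DFO), an iron chelator, at 100 µM for 24 h, and are used only where named. All cells, controls included, were grown with 10% fetal bovine serum and received siRNA by liposomes. The study's methods describe a single Ncoa4 siRNA, so effects of Ncoa4 loss and other effects of that siRNA cannot be told apart here. Of 24343 genes in the tables, the 11344 with at least 0.5 FPKM in at least 3 of the 6 libraries were tested. FPKM counts sequenced fragments relative to the length of the transcript and the size of the library.

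NCOA4 is the cargo receptor that carries ferritin, the iron storage protein, to the lysosome. There ferritin is degraded and its iron is released, a route called ferritinophagy. NCOA4 is itself degraded when iron is abundant, and it was first described as a coactivator of nuclear receptors. The iron regulatory proteins, encoded by Aco1 and Ireb2, adjust the translation of ferritin and the stability of Tfrc mRNA, which encodes the transferrin receptor.

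The labelled cell type was compared with marker genes. Of 17 neuronal markers, 10 were listed at 0 in all 6 libraries, among them Map2, Rbfox3, Snap25, Dcx and Prox1, and only Tubb3 and Syn1 had a mean of at least 1 FPKM in siControl. All 10 mesenchymal markers reached that mean, and Vim, which encodes an intermediate filament of mesenchymal cells, had 1662, 1592 and 1546 FPKM in siControl and 1327, 1374 and 1407 in siNCOA4. Defining markers of mature neurons were therefore at 0 in these cells. In bulk RNA, fewer cells of a type and less RNA per cell cannot be told apart.

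With siControl replicate 1 set to 1, the relative depth read from the steps between low FPKM values was 1.17 and 1.25 in the other siControl libraries and 1.26 to 1.41 in siNCOA4. The direction of change went with the GC content of transcripts: genes that were higher had a median of 45.1% GC, those that were lower 53.3% and those that did not pass 49.8%. The median change ran from 0.18 for transcripts of at most 40% GC to -0.17 for those above 60% GC on the log2 scale, and siNCOA4 replicate 2 had the steepest trend of the siNCOA4 libraries. After a loess correction for GC in each library, 161 genes were called in place of 186, and 146 of them were shared.

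The test was limma, applied to log2(FPKM + 0.1), a scale that understates fold changes of low genes, with Benjamini-Hochberg adjustment over the 11344 genes. Genes were called when they changed more than 2-fold with an adjusted p below 0.05, which 186 did (1.64%), 69 of them higher (0.608%) and 117 lower (1.03%) in siNCOA4. Of the 186, 4 higher and 7 lower genes passed the filter on low values in 1 group only, the group where they were high, so the filter favoured their calls. At an adjusted p below 0.05 without a fold threshold, 1278 genes (11.3%) passed, 455 higher (4.01%) and 823 lower (7.25%). Below, rose and fell refer to this second rule, and changes are log2 differences, siNCOA4 minus siControl. The groups did not overlap for any of the 186 called genes, against 3805 of all genes tested (33.5%). When each library was left out in turn, 119 of the 186 kept an adjusted p below 0.05 every time, 92 of the 117 lower genes and 27 of the 69 higher genes. The number with an adjusted p below 0.05 was 958, 703 and 845 without siControl replicates 1, 2 and 3 and 767, 579 and 601 without siNCOA4 replicates 1, 2 and 3. With 3 libraries against 3, a single gene cannot reach a two-sided exact p below 0.1. The limma p-values therefore rest on normally distributed log2 values and on a spread partly shared over genes. They measure the spread between libraries labelled as biological replicates.

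**Figure D1:**
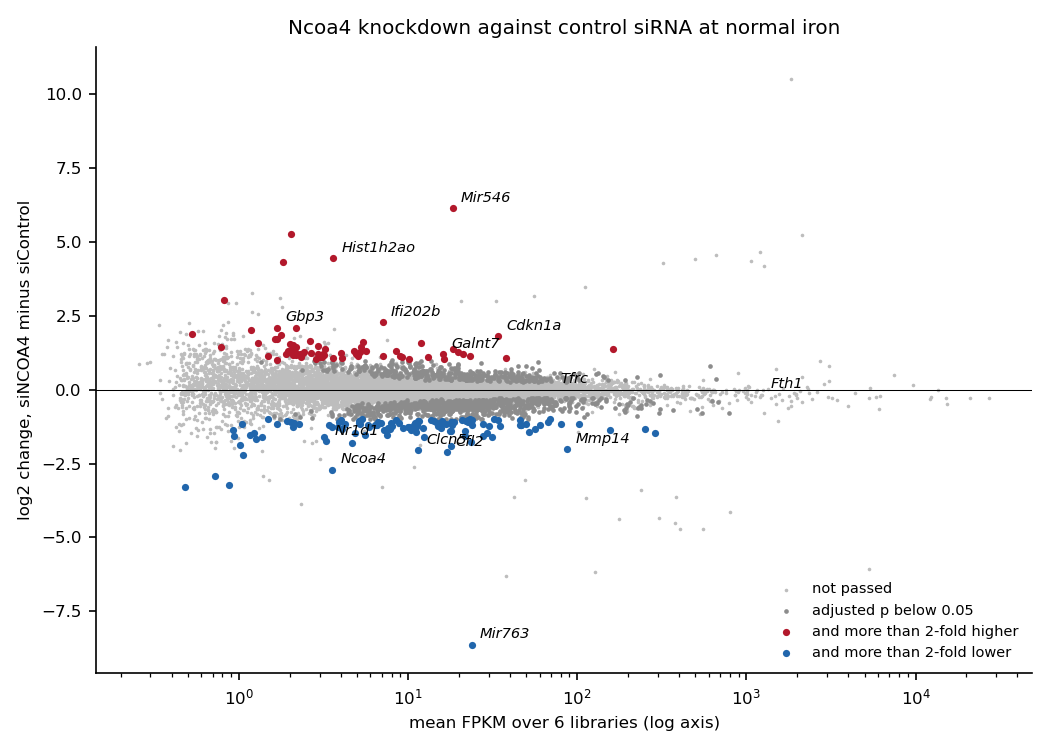
Change of each of the 11344 genes tested (log2, siNCOA4 minus siControl, vertical axis) against its mean FPKM (log axis). Red and blue points mark the 186 called genes, 69 above 0 and 117 below, which are spread over a wide range of levels. Darker grey points mark the other genes with an adjusted p below 0.05.

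Ncoa4, the target, lies at chr14:32159865-32179855 on the plus strand (GRCm38). It had 6.46, 6.19 and 6.02 FPKM in siControl and 0.770, 0.952 and 0.891 in siNCOA4, so every siNCOA4 library was below every control library. The mean was 6.22 ± 0.222 FPKM in siControl and 0.871 ± 0.0929 in siNCOA4 (SD, n = 3), or 14% of control. The change was -2.71 (standard error 0.186, adjusted p = 0.000246), and over the alternative settings the adjusted p lay between 9.74e-06 and 0.00221. Of the 75-base windows of its annotated transcripts, 16.9% also occur in other genes, chiefly Gm6768, so some reads could come from either.

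Transcripts of the proteins on which NCOA4 acts, or that sense iron, did not pass the test. Fth1, the ferritin heavy chain, had 1333, 1286 and 1323 FPKM in siControl and 1186, 1136 and 1192 in siNCOA4. These groups did not overlap, but the change of -0.17 did not pass (adjusted p = 0.379). Ftl1, the ferritin light chain, changed by -0.17 (adjusted p = 0.364) and its groups overlapped. Tfrc had 72.5, 68.6 and 69.8 FPKM in siControl and 69.9, 80 and 66 in siNCOA4, a change of 0.03 (adjusted p = 0.863). Slc11a2, the divalent metal transporter, Aco1, Ireb2 and Fbxl5, the ubiquitin ligase subunit that targets IRP2, had changes of -0.05, -0.17, 0.12 and 0.06, and none passed.

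Of 45 iron handling genes tested, 1 rose and 2 fell, Ncoa4 included (6.67%, against 11.3% of all genes tested), and the median change was 0.03. The 7 genes of ferritin, ferritinophagy and export, Ncoa4 included, all changed below 0, with a median of -0.26. Of these 7, 2 fell (4 at an unadjusted p below 0.05), and 3 fell with the GC correction. The 26 genes of heme and iron-sulfur clusters had a median of 0.09. Cp encodes ceruloplasmin, a copper ferroxidase that aids iron export. It went from 22.5, 25 and 23.1 FPKM in siControl to 15.8, 18.8 and 16.2 in siNCOA4, a change of -0.47 (adjusted p = 0.0205). Cp did not pass without siControl replicate 2 or 3 or siNCOA4 replicate 1 or 3 (adjusted p = 0.0504 to 0.0718), or with all 12 libraries in the fit (adjusted p = 0.139). Slc40a1, which encodes the iron exporter ferroportin, was listed at 0 in the 3 siControl libraries and at 0, 0.320 and 0.573 FPKM in siNCOA4, too low to be tested.

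For the route that NCOA4 serves, 4.76% of 42 autophagy genes and 1.92% of 52 lysosomal genes passed, against 11.3% of all genes tested. In lists of this size these are few genes, and the difference from that share was not tested. Among the autophagy genes Fundc1 rose and Bnip3 fell, both mitophagy receptors. Fundc1 went from 5.79, 6.92 and 7.59 FPKM in siControl to 10.1, 15.6 and 14 in siNCOA4, a change of 0.94 (adjusted p = 0.0153), and did not pass without siNCOA4 replicate 2 or 3 (adjusted p = 0.0558 to 0.0562). Bnip3 changed by -0.35 (adjusted p = 0.0359) and did not pass when any 1 library was left out (adjusted p = 0.0559 to 0.112). Map1lc3b and Sqstm1, which encode LC3B of the autophagosome and the receptor p62, changed by 0.16 and 0.05 and did not pass. Of 52 lysosomal genes, 1 rose and 0 fell in limma (3 at an unadjusted p below 0.05), and changes ran from -0.32 to 0.49. Atp6v1a, a subunit of the proton pump, rose by 0.34 (adjusted p = 0.0316) and did not pass when any 1 library was left out (adjusted p = 0.0505 to 0.101).

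**Figure D2:**
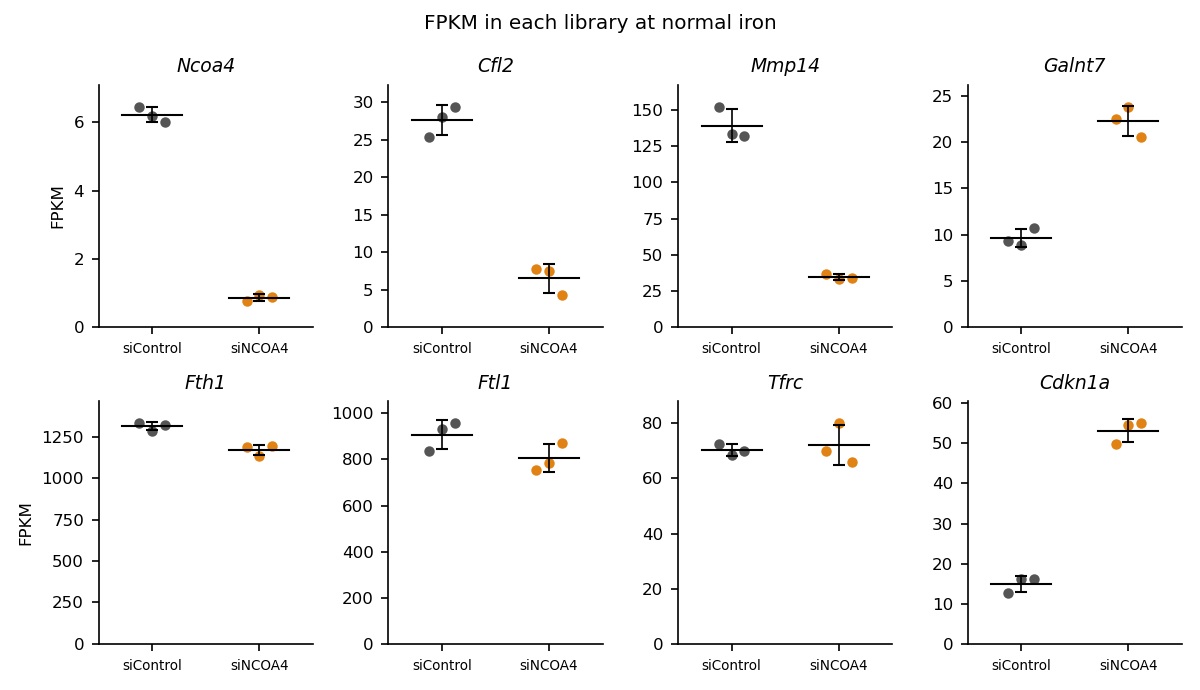
FPKM (vertical axes) of 8 genes in the 3 siControl and 3 siNCOA4 libraries, with a point per library and the mean ± SD. Ncoa4, Cfl2 and Mmp14 were lower in every siNCOA4 library and Galnt7 and Cdkn1a higher, while the points of Ftl1 and Tfrc overlap between groups.

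Cfl2 and Mmp14 were far below control in all siNCOA4 libraries. Cfl2 (chr12:54858809-54862877 on the minus strand (GRCm38)) encodes a muscle-type cofilin, which severs and depolymerises actin filaments, and had 25.4, 28.1 and 29.4 FPKM in siControl and 7.79, 7.51 and 4.31 in siNCOA4. Its change was -2.11 (standard error 0.211, adjusted p = 0.00126). Mmp14 (chr14:54431612-54445364 on the plus strand (GRCm38)), a membrane-anchored collagenase, had 152, 133 and 132 FPKM in siControl and 36.9, 33.1 and 33.9 in siNCOA4. It fell by 2.00 (standard error 0.0849, adjusted p = 9.78e-05), and the groups of both genes were far apart.

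The other large falls, among genes with a mean of at least 5 FPKM in the higher group and groups that did not overlap, came from unlike functions. Clcn5, a chloride and proton exchanger of endosomes, had 20, 17 and 18.2 FPKM in siControl and 3.88, 5.21 and 4.23 in siNCOA4, a change of -2.03 (adjusted p = 0.000246). R3hdm4 fell by 1.91 (adjusted p = 0.00041) and Apcdd1, an inhibitor of Wnt signalling, by 1.76 (adjusted p = 0.000124). Kdelr3, a receptor that returns proteins to the endoplasmic reticulum, fell by 1.61 and Prkar2b, a regulatory subunit of protein kinase A, by 1.55. Nrp2, a receptor for semaphorins and VEGF, went from 44.8, 38.8 and 40.6 FPKM in siControl to 15.3, 12.3 and 14.8 in siNCOA4. Adamts1, a secreted protease, went from 51.6, 45.5 and 43.6 FPKM in siControl to 15.5, 15.6 and 15.6 in siNCOA4. Each of these 7 genes passed whichever library was left out. Uxt, a prefoldin-like cofactor, fell by 1.81 (adjusted p = 0.0275) and did not pass without siControl replicate 2 or 3 or siNCOA4 replicate 2 or 3 (adjusted p = 0.0512 to 0.0791).

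Among the largest rises were genes known as targets of p53 and of interferon. Ifi202b, an interferon-inducible DNA-binding protein, had 1.98, 1.58 and 3.90 FPKM in siControl and 11.1, 11.9 and 12 in siNCOA4, a change of 2.29 (standard error 0.291, adjusted p = 0.00327). Cdkn1a, the cell cycle inhibitor p21, had 12.7, 16.2 and 16.1 FPKM in siControl and 49.8, 54.6 and 55 in siNCOA4, a change of 1.82 (standard error 0.110, adjusted p = 0.000181). For both, the lowest siNCOA4 library was above the highest siControl library. Eda2r, a receptor of the TNF receptor family, rose by 1.59, Ccng1, cyclin G1, by 1.39 and Trp53inp1, a p53-induced nuclear protein, by 1.30. Ifi27, an interferon-inducible membrane protein, went from 8.64, 16.4 and 10.4 FPKM in siControl to 24.8, 25.2 and 33.7 in siNCOA4. These 6 genes passed whichever library was left out.

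Galnt7 (chr8:57523828-57653032 on the minus strand (GRCm38)), which adds sugars in O-linked chains, had 9.35, 8.94 and 10.8 FPKM in siControl and 22.5, 23.8 and 20.6 in siNCOA4, a change of 1.20 (adjusted p = 0.000822). Fstl1, a secreted glycoprotein, rose by 1.38, Glt8d2, a predicted glycosyltransferase, by 1.43 and Agpat9, an acyltransferase of glycerolipid synthesis, by 1.31, and all 4 passed whichever library was left out. Tceal1 rose by 1.26 (adjusted p = 0.0155) and did not pass without siNCOA4 replicate 2 (adjusted p = 0.0635). Raet1d, a ligand of the NKG2D receptor, rose by 1.62 (adjusted p = 0.0250), but 44.1% of its windows also occur in other genes, and it did not pass without siControl replicate 1 or 3 or siNCOA4 replicate 1, 2 or 3 (adjusted p = 0.0606 to 0.0836). Hist1h2ao was listed near 0 in siControl replicates 1 and 3 and at 2.29 FPKM in replicate 2, with 7.41, 7.62 and 4.31 FPKM in siNCOA4. As 93.1% of its windows occur in other genes its change is uncertain, and it did not pass without siControl replicate 1 or 3 or siNCOA4 replicate 1, 2 or 3 (adjusted p = 0.0806 to 0.122).

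Lists of genes with known roles were then counted, beside the 4.01% of all genes tested that rose and the 7.25% that fell. Some genes belong to more than 1 list, Slc7a11, Bnip3 and Cdkn1a among them, so the counts of different lists are not separate. In the actin turnover list, 2 of 59 tested genes rose and 7 fell, with a median of -0.07. Of 14 tested genes of the cofilin family and its direct regulators, Cfl2 alone passed. Cfl1, the abundant cofilin, had 517, 598 and 630.4 FPKM in siControl and 478, 488 and 519 in siNCOA4, a change of -0.23 (adjusted p = 0.207), and Dstn, destrin, changed by 0.22 (adjusted p = 0.118). Vasp, which elongates filaments, fell by 0.79, Pxn and Vcl, paxillin and vinculin of focal adhesions, by 0.79 and 0.56, and Actr3, of the ARP complex that branches filaments, by 0.40. Tpm3, a tropomyosin that stabilises filaments, rose by 0.54. Actr2, of the same ARP complex as Actr3, rose by 0.39 (adjusted p = 0.016), so the complex did not move as 1. Actr2 did not pass without siControl replicate 2 or siNCOA4 replicate 2 or 3 (adjusted p = 0.0565 to 0.0575). Of the windows of Actr3 and Tpm3, 17.7% and 19.1% also occur in other genes. Cfl2, Vasp, Pxn, Vcl, Actr3 and Tpm3 passed whichever library was left out.

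In the extracellular matrix list, 14 of 54 tested genes fell and 4 rose, with a median of -0.18. Mmp14, Adamts1 and Adamts5 fell among 13 proteases and inhibitors. Mmp2 and Timp2, partners of MMP14 at the cell surface, changed by -0.17 and -0.26 and did not pass (adjusted p = 0.289 and adjusted p = 0.0784). Col1a1, a chain of type I collagen, had 439, 374 and 337 FPKM in siControl and 254, 198 and 215 in siNCOA4, a change of -0.78 (adjusted p = 0.00898), and Col1a2, its partner chain, fell by 0.79. Lox, which crosslinks collagen, fell by 0.64 and Ctgf, a matricellular protein, by 1.01, while Col5a2, a chain of type V collagen, rose by 0.56. The falls of Mmp14, Adamts1, Adamts5, Col1a1, Col1a2, Ctgf, Lox and Plod1 and the rise of Col5a2 were kept whichever library was left out. The number that fell was 8, 8 and 9 without siControl replicates 1, 2 and 3 and 12, 8 and 8 without siNCOA4 replicates 1, 2 and 3, and 10 with the GC correction; the number that rose was 5, 2 and 2 without siControl replicates 1, 2 and 3 and 2, 1 and 2 without siNCOA4 replicates 1, 2 and 3. Of the 10 mesenchymal markers, 6 fell, Col1a1, Col1a2, Col3a1, Fn1, Pdgfra and Pdgfrb, and 4 fell with the GC correction. Col1a1, Col1a2, Pdgfra and Pdgfrb were kept whichever library was left out. The summed FPKM of the markers went from 5506 to 6053 in siControl to 4782 to 5167 in siNCOA4. Col1a1 and Col1a2 are also counted in the matrix list, and Pdgfra and Pdgfrb among receptor tyrosine kinases, so these counts are not separate. The part of the markers in the matrix result was not tested.

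Genes of mucin-type O-glycosylation had a median change of 0.45 over 12 tested members, of which 3 rose and 1 fell. C1galt1, which extends the first sugar of these chains, went from 27.7, 23.2 and 25.8 FPKM in siControl to 36.2, 41.5 and 41.3 in siNCOA4, a change of 0.63 (adjusted p = 0.00664). Its chaperone C1galt1c1 rose by 0.55 (adjusted p = 0.0275), which did not pass with the GC correction (adjusted p = 0.0770) or without siControl replicate 2 or 3 or siNCOA4 replicate 1, 2 or 3 (adjusted p = 0.0672 to 0.0874). St6galnac4, a sialyltransferase, fell by 0.83 and did not pass without siControl replicate 1, 2 or 3 or siNCOA4 replicate 2 or 3 (adjusted p = 0.0551 to 0.102). Galnt7 and C1galt1 passed whichever library was left out. Of 38 sterol and fatty acid genes, 1 rose and 2 fell. The number that rose was 0, 0 and 1 without siControl replicates 1, 2 and 3 and 0, 0 and 0 without siNCOA4 replicates 1, 2 and 3, and 0 with the GC correction (5 at an unadjusted p below 0.05 without it). The number that fell was 1, 1 and 3 without siControl replicates 1, 2 and 3 and 1, 1 and 1 without siNCOA4 replicates 1, 2 and 3.

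Interferon induces genes through a promoter element read by STAT and IRF factors, the interferon-stimulated response element. Of 42 tested genes of the response to interferon and double-stranded RNA, 10 rose and 0 fell in limma (3 at an unadjusted p below 0.05), with a median of 0.33; with the GC correction 10 rose and 1 fell. Gbp3, a guanylate-binding GTPase of immunity, had 0.532, 0.742 and 0.455 FPKM in siControl and 2.31, 2.95 and 3.07 in siNCOA4, a change of 2.1 (adjusted p = 0.00433). Oasl2, of the oligoadenylate synthetase family, had 1.53, 1.05 and 1.12 FPKM in siControl and 4.10, 3.46 and 4.49 in siNCOA4. In both genes the groups were well apart at low levels. Tlr3, the endosomal sensor of double-stranded RNA, rose by 1.44, Rtp4 by 1.17, Igtp, an immunity-related GTPase, by 0.90, Gbp2 by 0.82 and Ifit1, which binds foreign RNA, by 0.77. H2-D1, a class I histocompatibility gene, Stat2 and Eif2ak2, the kinase PKR, rose by 0.55, 0.44 and 0.36. Isg15, a ubiquitin-like modifier, had 6.95, 12.3 and 12 FPKM in siControl and 13.9, 18.9 and 24.2 in siNCOA4 and did not pass (adjusted p = 0.0674). Only Gbp3 and Oasl2 passed whichever library was left out, and the number that rose was 9, 4 and 6 without siControl replicates 1, 2 and 3 and 7, 3 and 4 without siNCOA4 replicates 1, 2 and 3.

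The response element was searched as GAAA, any 2 bases and GAAA, on both strands, in RefSeq promoter windows (GRCm38.p6) from 250 bases before to 50 after the start, which 35 of the 42 tested members have. It was found in 6 of 9 rising members and 10 of 26 that did not pass, against 3.63% of the tested genes and 3.99% of all 27025 genes with a window. The list holds genes of the response to interferon, which acts through this element, so nothing is read from its share against all genes. The windows of 4 rising genes are shown because they hold the element, in capitals; a match describes letters and not binding. They lie on the plus strand, at chr3:142559794-142560093 for Gbp3, chr3:142620413-142620712 for Gbp2, chr11:58199306-58199605 for Igtp and chr19:34640639-34640938 for Ifit1.
Gbp3: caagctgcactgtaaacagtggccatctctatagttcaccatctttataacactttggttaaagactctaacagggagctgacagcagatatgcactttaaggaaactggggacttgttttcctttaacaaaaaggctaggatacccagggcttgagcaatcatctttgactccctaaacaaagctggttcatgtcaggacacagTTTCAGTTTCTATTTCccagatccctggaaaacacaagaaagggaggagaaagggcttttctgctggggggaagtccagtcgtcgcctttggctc
Gbp2: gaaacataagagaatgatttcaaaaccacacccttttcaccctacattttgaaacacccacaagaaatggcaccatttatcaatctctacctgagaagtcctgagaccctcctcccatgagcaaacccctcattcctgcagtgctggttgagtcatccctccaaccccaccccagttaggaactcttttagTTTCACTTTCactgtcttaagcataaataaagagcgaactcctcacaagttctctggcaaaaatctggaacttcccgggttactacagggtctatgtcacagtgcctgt
Igtp: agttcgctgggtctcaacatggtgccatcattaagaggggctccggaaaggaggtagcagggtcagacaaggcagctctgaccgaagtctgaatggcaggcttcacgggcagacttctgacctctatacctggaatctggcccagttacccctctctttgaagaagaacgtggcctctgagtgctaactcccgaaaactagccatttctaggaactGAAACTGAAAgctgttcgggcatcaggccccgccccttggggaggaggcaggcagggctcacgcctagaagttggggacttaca
Ifit1: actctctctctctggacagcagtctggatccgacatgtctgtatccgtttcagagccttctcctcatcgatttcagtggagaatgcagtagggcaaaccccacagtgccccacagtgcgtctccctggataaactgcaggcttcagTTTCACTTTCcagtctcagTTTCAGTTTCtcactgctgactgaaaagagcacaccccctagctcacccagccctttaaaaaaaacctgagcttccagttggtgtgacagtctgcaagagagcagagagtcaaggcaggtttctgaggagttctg
The match began 59 bases before the start in Gbp2 and 34 bases before it in Igtp, while Gbp3 and Ifit1 held 2 matches each, overlapping in Gbp3.

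In the RNA interference list, 2 of 12 tested genes rose, Tnrc6a and Tnrc6b, and Ago2, the slicing Argonaute, fell. Ago2 went from 39.8, 30.9 and 30.7 FPKM in siControl to 23.4, 21.1 and 21.4 in siNCOA4, a change of -0.61 (adjusted p = 0.0147), and did not pass without siNCOA4 replicate 2 or 3 (adjusted p = 0.0528 to 0.0567). Tnrc6a and Tnrc6b, scaffolds of silencing, rose by 0.45 and 0.42; Tnrc6a did not pass without siNCOA4 replicate 1 or 3 (adjusted p = 0.0518 to 0.0521), and Tnrc6b did not pass without siControl replicate 2 or 3 or siNCOA4 replicate 1, 2 or 3 (adjusted p = 0.0957 to 0.127).

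The list of p53, the transcription factor that answers DNA damage and other stress, and its targets held 8 rises and 1 fall among 20 tested genes, with a median of 0.37. Trp53, which encodes p53 and is 1 of the 20, changed by -0.27 and did not pass (adjusted p = 0.0537). Beside Cdkn1a, Eda2r, Ccng1 and Trp53inp1, Mdm2, the ubiquitin ligase that limits p53, went from 31.1, 28.4 and 32.5 FPKM in siControl to 47.7, 52.6 and 51 in siNCOA4, a change of 0.72 (adjusted p = 0.00210). These 5 passed whichever library was left out. Btg2, an antiproliferative gene, rose by 1.03 and did not pass without siControl replicate 1 or 3 or siNCOA4 replicate 1, 2 or 3 (adjusted p = 0.0530 to 0.120). Aen, a nuclease, and Gadd45a, a stress sensor, rose by 0.57 and 0.56, and Plk2, a kinase, fell by 0.34. Aen did not pass without siControl replicate 1, 2 or 3 or siNCOA4 replicate 1 or 3 (adjusted p = 0.0555 to 0.0836), and Gadd45a did not pass without siControl replicate 1 or 2 or siNCOA4 replicate 1, 2 or 3 (adjusted p = 0.0547 to 0.149). The fall of Plk2 was lost when any 1 library was left out (adjusted p = 0.0502 to 0.0900). The number that rose was 6, 7 and 6 without siControl replicates 1, 2 and 3 and 5, 6 and 5 without siNCOA4 replicates 1, 2 and 3, and 10 with the GC correction. Of 30 apoptosis genes, 5 rose and 0 fell in limma (2 at an unadjusted p below 0.05), by 0.41 to 0.70, among them Bmf, Apaf1, Birc2 and Casp8. Bmf is a pro-apoptotic BH3-only protein, Casp8 and Apaf1 belong to the caspase pathways and Birc2 inhibits apoptosis. None of the 5 passed in all cases with 1 library left out, and the number that rose was 2, 2 and 1 without siControl replicates 1, 2 and 3 and 2, 0 and 0 without siNCOA4 replicates 1, 2 and 3.

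**Figure D3:**
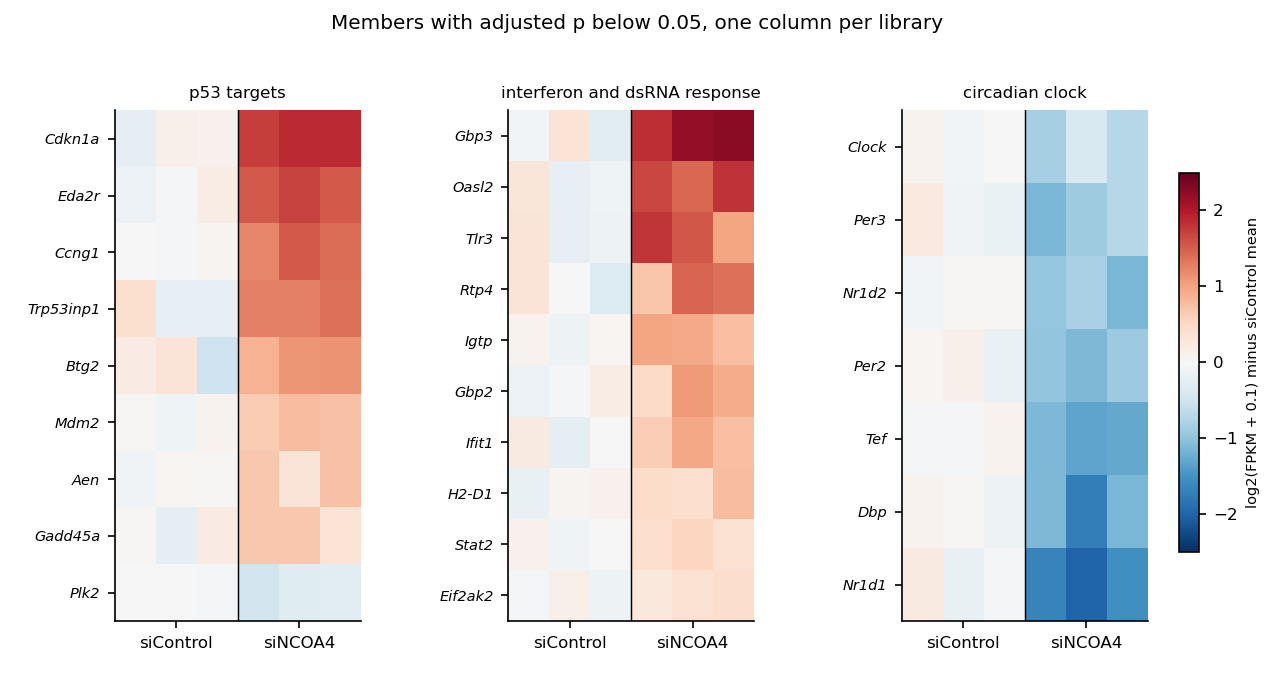
Levels of the list members that passed, as log2(FPKM + 0.1) minus the siControl mean of each gene (colour), with 1 column per library. The 3 siNCOA4 columns are above the siControl mean for 8 of the 9 p53 targets and all 10 interferon genes shown and below it for the 7 clock genes shown.

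Of 128 cell cycle genes, 30 fell and 4 rose, and 19 fell and 5 rose with the GC correction. The median was -0.38 over the list, -0.55 for its 57 histone genes and -0.21, -0.06 and -0.01 for its G1, DNA replication and mitosis genes. Among the regulators of G1, Ccne1, cyclin E1, went from 17.7, 16.8 and 17.6 FPKM in siControl to 7.32, 5.86 and 7.82 in siNCOA4, a change of -1.31 (adjusted p = 0.00111). Ccne2, cyclin E2, rose instead, from 8.28, 8.86 and 8.31 FPKM in siControl to 13, 15.7 and 15.1 in siNCOA4 (adjusted p = 0.00441). Myc, a driver of growth, fell by 0.88 (adjusted p = 0.00122), and Ccnd1, cyclin D1, changed by 0.18 and did not pass (adjusted p = 0.124). Of 28 DNA replication genes 3 fell, with Mcm10, an initiation factor, at -0.83. Of 27 mitosis genes 4 fell and 1 rose, Prc1 of the spindle midzone, by 0.39; without siNCOA4 replicate 2, 2 of the mitosis genes fell. Mki67, Mcm2, Pcna and Ccnb1 did not pass. Ccne1, Ccne2, Myc, Mcm10 and Prc1 passed whichever library was left out, and the number of cell cycle genes that fell was 28, 29 and 21 without siControl replicates 1, 2 and 3 and 12, 10 and 20 without siNCOA4 replicates 1, 2 and 3.

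Replication-dependent histone genes, which are transcribed in S phase, held 18 of the 30 falls. Of 57 tested, 18 fell and 1 rose, with a median of -0.55. Hist1h2bh had 158, 106 and 109 FPKM in siControl and 69, 71.3 and 75.9 in siNCOA4, a change of -0.76 (adjusted p = 0.0158), and did not pass without siNCOA4 replicate 2 (adjusted p = 0.0575). These genes have a median GC content of 58.8%, and with the GC correction 7 fell and the median was -0.44. The number that fell was 16, 19 and 13 without siControl replicates 1, 2 and 3 and 4, 3 and 10 without siNCOA4 replicates 1, 2 and 3. Copies of histone genes share sequence, so single members are uncertain.

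Clock genes had a median of -0.78 over 12 tested members, with 7 falls and 0 rises in limma (2 at an unadjusted p below 0.05); with the GC correction 7 fell and 1 rose. In the clock, CLOCK and BMAL1 activate genes that repress them, among them the Per genes and Nr1d1, which encodes the heme-binding repressor REV-ERB alpha. Nr1d1 had 5.99, 4.47 and 4.90 FPKM in siControl and 1.53, 1.19 and 1.68 in siNCOA4, a change of -1.74 (standard error 0.209, adjusted p = 0.00251). Nr1d2, its paralog, went from 11, 11.9 and 11.9 FPKM in siControl to 5.90, 6.57 and 5.20 in siNCOA4, a change of -0.97. Dbp and Tef, activators that bind the D-box, fell by 1.33 (adjusted p = 0.00689) and 1.24 (adjusted p = 0.00041). Nr1d1, Nr1d2, Dbp and Tef passed whichever library was left out. Per2 and Per3, repressors of the loop, fell by 1.01 and 0.92 and Clock by 0.65. Per3 did not pass without siNCOA4 replicate 2 (adjusted p = 0.0531), Clock did not pass without siControl replicate 1 or 3 or siNCOA4 replicate 1 or 3 (adjusted p = 0.0509 to 0.0669), and Per2 did not pass when any 1 library was left out (adjusted p = 0.0685 to 0.119). Arntl, which encodes BMAL1, changed by 0.68 and did not pass (adjusted p = 0.0588).

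A D-box, searched as TTATGTAA on both strands, was found in 1 of 6 falling clock genes with a promoter window, Per3, in 0 of 5 that did not pass, in 0.64% of the tested genes with a window and in 1.11% of all genes with one. An E-box, searched as CACGTG, was found in 1 of the 6, Tef, in 2 of the 5, in 12.1% of the tested genes and in 8.09% of all genes. The Per3 window, chr4:151044616-151044915 on the minus strand, is shown because it holds 2 D-box matches, in capitals.
Per3: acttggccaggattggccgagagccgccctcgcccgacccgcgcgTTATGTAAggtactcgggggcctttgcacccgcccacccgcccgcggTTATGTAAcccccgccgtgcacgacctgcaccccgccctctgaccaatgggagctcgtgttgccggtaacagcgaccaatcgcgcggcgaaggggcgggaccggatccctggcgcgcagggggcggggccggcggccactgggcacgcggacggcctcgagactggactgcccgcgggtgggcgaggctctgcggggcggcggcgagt

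Of 16 tested nuclear receptor coactivators and partners, the family for which NCOA4 is named, 4 fell and 0 rose in limma (0 at an unadjusted p below 0.05). Vdr, the vitamin D receptor, went from 10.4, 7.80 and 8.42 FPKM in siControl to 4.28, 3.38 and 3.85 in siNCOA4, a change of -1.18 (adjusted p = 0.00387). Thra, a thyroid hormone receptor, Ncoa3 and Crebbp, a histone acetyltransferase, fell by 0.58, 0.50 and 0.51. Crebbp did not pass without siControl replicate 1 or 2 or siNCOA4 replicate 1, 2 or 3 (adjusted p = 0.0510 to 0.106), and the calls of Vdr, Thra and Ncoa3 were kept whichever library was left out.

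**Figure D4:**
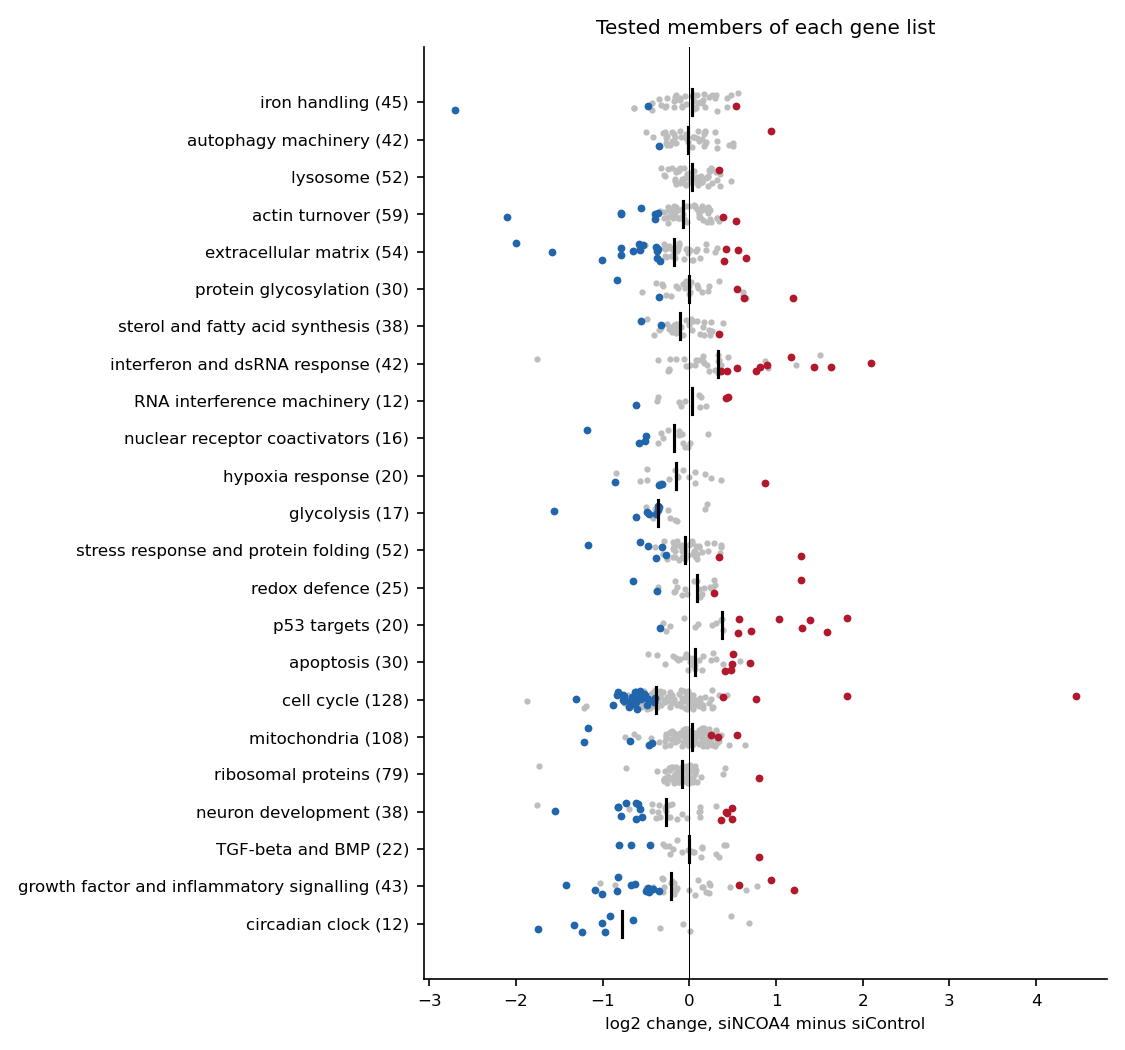
Change of each tested member of 23 gene lists (log2, siNCOA4 minus siControl), with red and blue points for members that passed and a bar at each median. Medians run from -0.78 for clock genes to 0.37 for p53 targets.

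Of 17 tested enzymes of glycolysis, 8 fell and 0 rose in limma (1 at an unadjusted p below 0.05), with a median of -0.36. Aldoa, an aldolase, had 294, 297 and 300.2 FPKM in siControl and 219.7, 195 and 220.4 in siNCOA4, a change of -0.49 (adjusted p = 0.00935). Pgk1 fell by 0.62 (adjusted p = 0.00273), although 52.8% of its windows occur in other genes. Pfkl fell by 0.47, Pkm by 0.38 and Tpi1 by 0.36, and Ldha, lactate dehydrogenase, changed by -0.17 and did not pass. Gapdh, 1 of the 8, was listed at only 1.38 to 1.49 FPKM in siControl, passed the filter on low values only through that group, and shares windows with 118 other genes, so its fall is uncertain. It did not pass with all 12 libraries in the fit (adjusted p = 0.337). The 7 others passed the filter in both groups. Aldoa and Pgk1 alone passed whichever library was left out. The number that fell was 5, 3 and 4 without siControl replicates 1, 2 and 3 and 5, 2 and 3 without siNCOA4 replicates 1, 2 and 3, and 6 with the GC correction.

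Most genes of energy metabolism and translation did not pass, as was so for all genes tested, of which 11.3% passed. Of 108 nuclear genes of mitochondrial function, 3 rose and 5 fell, with a median of 0.04. Pdhb, a subunit of pyruvate dehydrogenase, went from 41.9, 49.5 and 54.1 FPKM in siControl to 16.8, 19.3 and 27.4 in siNCOA4, a change of -1.22 (adjusted p = 0.00555). Cox7b, a subunit of cytochrome c oxidase, went from 103, 169 and 154 FPKM in siControl to 62.8, 59.3 and 62.7 in siNCOA4, a change of -1.17 (adjusted p = 0.00500). Suclg2, Ndufa10 and Atp5d fell by 0.68, 0.47 and 0.43, and all 5 falls passed whichever library was left out, while 8 members fell without siControl replicate 1. Ndufs1, an iron-sulfur subunit of the first respiratory complex, changed by 0.16 and did not pass. The rises of Ndufb2, Dnm1l and Sdha, by 0.55, 0.33 and 0.26, did not hold without every library; their number was 0, 0 and 2 without siControl replicates 1, 2 and 3 and 0, 0 and 0 without siNCOA4 replicates 1, 2 and 3. Of 79 ribosomal protein genes, Rpl36 rose and 0 fell in limma (4 at an unadjusted p below 0.05), with a median of -0.08, and 70.9% of the windows of Rpl36 occur in other genes. Rpl36 did not pass without siControl replicate 3 or siNCOA4 replicate 2 or 3 (adjusted p = 0.0533 to 0.0689), or with all 12 libraries in the fit (adjusted p = 0.0881). Of 20 hypoxia genes, Ero1l, an oxidase of the endoplasmic reticulum, rose by 0.88 (adjusted p = 0.00604) and 3 fell, of which Ndrg1, at -0.85, passed whichever library was left out; the number that fell was 1, 1 and 2 without siControl replicates 1, 2 and 3 and 2, 1 and 1 without siNCOA4 replicates 1, 2 and 3.

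Stress lists held single large changes. Pdia4, a disulfide isomerase of the endoplasmic reticulum, went from 114, 103 and 116 FPKM in siControl to 46.6, 55.2 and 46.7 in siNCOA4, a change of -1.17 (adjusted p = 0.00041), while Hspa5, the chaperone BiP, changed by -0.17 and did not pass. Slc7a11, the cystine transporter that supplies glutathione synthesis, went from 1.55, 1.35 and 1.20 FPKM in siControl to 3.22, 4.02 and 3.21 in siNCOA4, a change of 1.29 (adjusted p = 0.00860). Of 18 integrated stress response genes, 1 rose, Slc7a11, and 4 fell, and with the GC correction 0 fell. The number of these that fell was 1, 0 and 1 without siControl replicates 1, 2 and 3 and 0, 0 and 0 without siNCOA4 replicates 1, 2 and 3. Atf4, Ddit3 and Asns changed by -0.11, 0.04 and 0.01 and did not pass. Of 25 redox genes 2 rose, Slc7a11 again among them, and 2 fell, and G6pdx, of the pentose phosphate pathway, fell by 0.65 (adjusted p = 0.00194). Pdia4, Slc7a11 and G6pdx passed whichever library was left out.

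Receptors and guidance genes were among those that fell. Of 12 receptor tyrosine kinases, 5 fell and 0 rose in limma (0 at an unadjusted p below 0.05). Axl, the receptor of GAS6, had 78.6, 76.6 and 70.7 FPKM in siControl and 30.5, 27.5 and 26 in siNCOA4, a change of -1.43 (adjusted p = 0.000181). Pdgfrb, a receptor of platelet-derived growth factor, went from 28, 24.8 and 24.1 FPKM in siControl to 12, 12 and 12 in siNCOA4, a change of -1.09 (adjusted p = 0.000461). Igf1r, Pdgfra and Fgfr1 fell by 0.83, 0.63 and 0.67, and Fgfr1 did not pass without siControl replicate 2 or siNCOA4 replicate 1, 2 or 3 (adjusted p = 0.0502 to 0.0688). Pdgfra did not pass with all 12 libraries in the fit (adjusted p = 0.202). Of 28 axon guidance and adhesion genes, 9 fell and 2 rose, with a median of -0.35. Slit2, a repellent of axons, Ephb4, an ephrin receptor, Plxna2 and Sema5a fell by 0.82, 0.82, 0.79 and 0.74. Nrp1 rose by 0.49 where its paralog Nrp2 fell by 1.55, and Nrp1 did not pass without siNCOA4 replicate 2 (adjusted p = 0.0525). Nrp2, Slit2, Ephb4, Plxna2 and Sema5a passed whichever library was left out, and the number that fell was 6, 6 and 9 without siControl replicates 1, 2 and 3 and 6, 5 and 6 without siNCOA4 replicates 1, 2 and 3.

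Inflammatory and growth signals moved in both directions, and of 16 genes of NF-kB, cytokines and chemokines 3 rose and 4 fell. Ccl2, which attracts monocytes, had 11.9, 11.8 and 14.9 FPKM in siControl and 30.3, 30.8 and 27.6 in siNCOA4, a change of 1.20 (adjusted p = 0.00101) that passed whichever library was left out. Cxcl1 and Cxcl5, which attract neutrophils, rose by 0.95 and 0.57. Cxcl1 did not pass without siControl replicate 1 or 3 or siNCOA4 replicate 1, 2 or 3 (adjusted p = 0.0718 to 0.0968), and Cxcl5 did not pass without siControl replicate 2 or siNCOA4 replicate 2 or 3 (adjusted p = 0.0583 to 0.0729) or with the GC correction (adjusted p = 0.0589). Csf1, a growth factor of macrophages, fell by 0.47 and passed whichever library was left out. The NF-kB subunit genes Nfkb1, Nfkb2 and Relb fell by 0.35, 0.48 and 0.50. Nfkb1 did not pass without siControl replicate 2 or siNCOA4 replicate 1, 2 or 3 (adjusted p = 0.0619 to 0.0905), Nfkb2 without siControl replicate 1 or 2 or siNCOA4 replicate 2 or 3 (adjusted p = 0.0512 to 0.0816) and Relb when any 1 library was left out (adjusted p = 0.0756 to 0.140). The number of the 16 that rose was 3, 2 and 2 without siControl replicates 1, 2 and 3 and 2, 1 and 1 without siNCOA4 replicates 1, 2 and 3, and the number that fell was 2, 1 and 3 without siControl replicates 1, 2 and 3 and 2, 1 and 1 without siNCOA4 replicates 1, 2 and 3; with the GC correction, 2 rose and 2 fell. Inhba, a subunit of activin, rose by 0.80 (adjusted p = 0.00215), and Id3 and Tgfbr2, a target and a receptor of the TGF-beta family, fell by 0.81 and 0.67, all kept whichever library was left out. Of 15 early response genes, 4 fell and 0 rose in limma (0 at an unadjusted p below 0.05), 2 fell with the GC correction, and Dusp4, a phosphatase of MAP kinases that fell by 1.01, alone passed whichever library was left out; the number that fell was 1, 2 and 1 without siControl replicates 1, 2 and 3 and 2, 1 and 1 without siNCOA4 replicates 1, 2 and 3.

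A pair of microRNA entries differed, in libraries of total RNA that do not single out mature microRNA. The siControl libraries listed Mir763 at 89.5, 22.2 and 31.1 FPKM, and all 3 siNCOA4 libraries listed it at 0. Mir763 passed the filter on low values only through siControl, which favoured its call. Without any 1 siControl library it was not tested, so its stability to those libraries is unknown. Mir546 was listed near 0 in siControl replicates 1 and 3 and at 6.41 FPKM in replicate 2, against 37.1, 43.2 and 23.5 FPKM in siNCOA4. All windows of Mir546 also occur in Ctdsp2, which was itself called in the other direction, with a change of -1.38. The call of Mir546 (adjusted p = 0.0260) was lost without siControl replicate 1 or 3 or siNCOA4 replicate 1, 2 or 3 (adjusted p = 0.0583 to 0.0888). The mature sequences in RefSeq (GRCm38.p6) identify the entries, with the seed, bases 2 to 8, in capitals, and the seeds differ. They lie at chr10:120448052-120448073 on the minus strand and chr10:126998471-126998486 on the plus strand.
mmu-miR-763: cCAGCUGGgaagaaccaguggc
mmu-miR-546: aUGGUGGCacggaguc

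The same siRNA comparison in DFO-treated cells uses other libraries, fitted with these in limma over 11924 genes, and 1963 genes passed there (16.5%), 742 higher (6.22%) and 1221 lower (10.2%). Of the 186 genes called at normal iron, 156 had the same direction with DFO (83.9%), and 84 of these also passed there. The same direction with an adjusted p below 0.05 was found for 69 of the 117 lower genes and 15 of the 69 higher genes. Ncoa4 itself had a change of -2.67 (adjusted p = 2.83e-05) with DFO, Cfl2 -1.21 (adjusted p = 0.00126) and Nr1d1 -1.96 (adjusted p = 7.97e-05).

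The difference between the effects with and without DFO, an interaction in that fit, passed for 250 genes (2.1%) and for 33 of the 186, of which 20 were higher and 13 lower at normal iron. The 186 were chosen for their change in the same normal-iron libraries that enter the interaction, so nothing is read from their count against the 2.1%, nor from a smaller change with DFO. The number of genes whose siNCOA4 effect differed with DFO (interaction) was 143 and 132 without siControl replicates 2 and 3, 149, 109 and 98 without siNCOA4 replicates 1, 2 and 3, 76 and 130 without siControl+DFO replicates 1 and 2, and 148 without siNCOA4+DFO replicate 2. Of the 20 p53 targets tested, 8 had an interaction. Members such as Cdkn1a and Mdm2 had risen in the same normal-iron libraries, and the list was chosen with earlier results known. Nothing is therefore read from this count against the 2.1% either. Cdkn1a, with a change of 1.82 at normal iron, had -0.42 (adjusted p = 0.0854) with DFO, and the difference was -2.24 (adjusted p = 0.000874). With DFO its level was 435, 467 and 433 FPKM in siControl and 409, 364 and 247 FPKM in siNCOA4, all above the libraries without DFO. Mmp14 had -2.00 at normal iron and -0.97 (adjusted p = 0.000155) with DFO, a difference of 1.03 (adjusted p = 0.00467). Tef had -1.24 and 0.02 (adjusted p = 0.891), a difference of 1.26 (adjusted p = 0.000874).

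**Figure D5:**
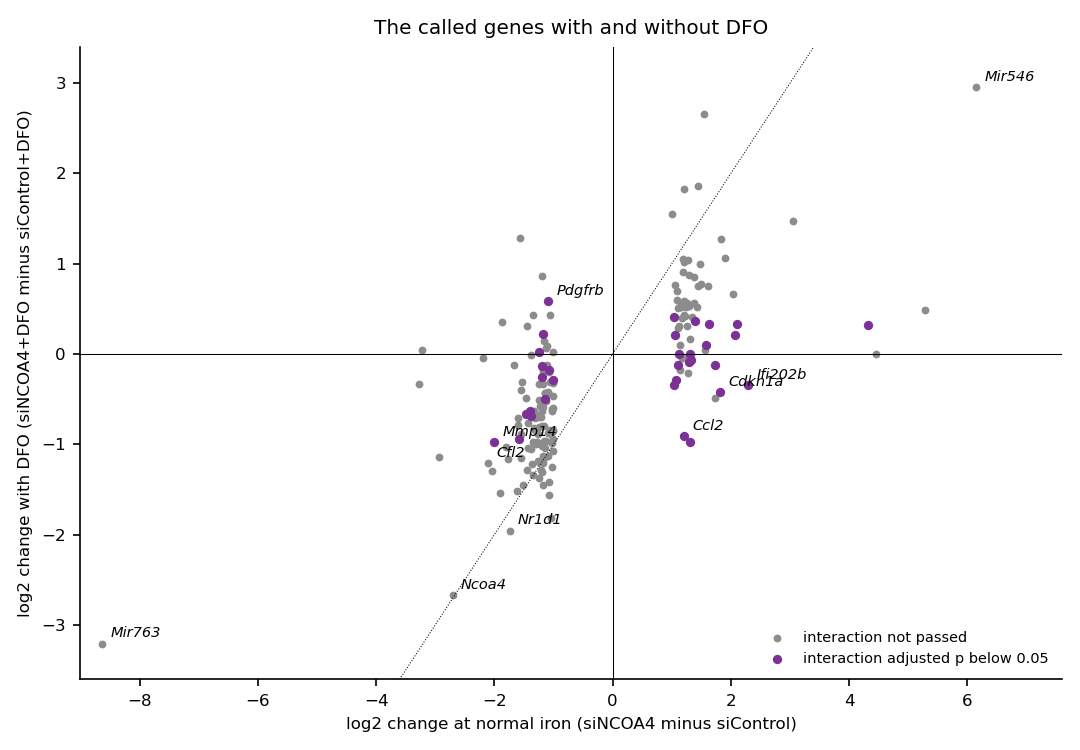
Change of the 186 called genes at normal iron (horizontal axis, log2) against their change with DFO (vertical axis, log2), with a dotted line at equality and purple points for the 33 genes with an interaction. Medians with DFO were 0.42 for the 69 higher and -0.77 for the 117 lower genes, against 1.29 and -1.22 at normal iron, where the genes were chosen for changes above 2-fold.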

How the data were processed

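RNA-seq of HT22 cells was used from 12 libraries in 4 groups of 3, of which the 6 at normal iron make up the main comparison. The kit was SMARTer Stranded Total RNA-Seq Pico Mammalian v2, read as 75-base pairs. The authors deposited FPKM values per gene and library. The submitters' processing notes name Trimmomatic 0.33, FastQC, HISAT2 2.1.0, featureCounts, edgeR and the build mm10; the tool that made the FPKM is not given in the sources used here. Read totals are not in the FPKM tables, so depth is known only as a ratio between libraries, and no counting interval is given. Of 24347 entries, 24343 were kept; 13 names turned into dates by a spreadsheet were restored and 10 were left.

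Values were taken as log2(FPKM + 0.1) and fitted with limma 3.58.1 (R 4.3.3) with a mean-variance trend, for genes with at least 0.5 FPKM in at least 3 of the 6 libraries. The residual degrees of freedom were 4 and the prior ones 4.16. The script was tested on simulated data. At an adjusted p below 0.05 it recovered 51.1% of 1.5-fold, 52% of 2-fold, 91.3% of 3-fold and 89.4% of 4-fold changes. Changes of 1.5-fold and 2-fold were thus often missed there. Of its calls there, 8.22% were false, above the 5% aimed at. The simulated data left 10944 of 11134 genes unchanged, while 1278 of 11344 genes passed in the real data. The adjusted p depends on that share, so the rates of the simulation need not hold for the real data. The interaction used all 12 libraries. Named genes were Ncoa4, Cfl2, Mmp14 and Galnt7; the 12 called genes that rose most and the 12 that fell most, where groups did not overlap and the higher group had at least 5 FPKM, without microRNA, small RNA, Gm and Rik names; up to 6 passing members per list and direction, and key members; and the largest changes among the names left out. Of these only those that carry a result are printed. Some list members are not reported here. Other list members were named from their list's passing members after their values were seen. Members and gene lists were chosen with earlier results of these data known. Alternatives were other pseudocounts, filters, scalings and moderation, a replicate block, all 12 libraries and leaving out each library.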

Additional observations from a re-analysis of the deposited data

Results flagged for a closer look

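Of the 195 named genes that were tested, 28 had a siNCOA4 effect that differed between cells with and without DFO, by the interaction in limma over 12 libraries (Benjamini-Hochberg adjusted p over 11924 genes). Of these, 22 differences were negative and 6 positive, where a difference is the log2 change with DFO minus that at normal iron. Over all genes in that fit, 250 passed (2.1%). Many named genes were chosen for their change in the same normal-iron libraries that enter the interaction. Nothing is therefore read from the count of 28 or from the split of signs. In the lists below the difference comes first, and the brackets hold its adjusted p and then the changes at normal iron and with DFO. Known targets of p53 were Cdkn1a -2.24 (adjusted p = 0.000874; 1.82 and -0.419), Mdm2 -1.51 (adjusted p = 0.00397; 0.716 and -0.796), Eda2r -1.49 (adjusted p = 0.000874; 1.59 and 0.0973), Trp53inp1 -1.39 (adjusted p = 0.00669; 1.3 and -0.0917), Btg2 -1.38 (adjusted p = 0.0393; 1.03 and -0.341) and Ccng1 -1.03 (adjusted p = 0.00397; 1.39 and 0.361). Interferon-inducible genes were Ifi202b -2.63 (adjusted p = 0.00405; 2.29 and -0.342), Gbp3 -1.77 (adjusted p = 0.0173; 2.1 and 0.334), Ifit1 -1.33 (adjusted p = 0.0104; 0.773 and -0.56) and Oasl2 -1.3 (adjusted p = 0.0163; 1.64 and 0.337). Secreted signals were Cxcl1 -2.17 (adjusted p = 0.0192; 0.945 and -1.22), Ccl2 -2.12 (adjusted p = 0.00351; 1.2 and -0.913) and Inhba -1.59 (adjusted p = 0.000874; 0.802 and -0.789).

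Cyclins were Ccne2 -1.04 (adjusted p = 0.00439; 0.774 and -0.27) and Ccnd1 -0.982 (adjusted p = 0.00375; 0.183 and -0.799), and genes of axon guidance and the neuronal cytoskeleton were Sema3c -0.806 (adjusted p = 0.0136; 0.494 and -0.311), Dpysl3 -0.656 (adjusted p = 0.0174; 0.361 and -0.295) and Map1b -0.516 (adjusted p = 0.0469; 0.439 and -0.077). Other negative differences were those of 9030617O03Rik -1.39 (adjusted p = 0.00373; 1.32 and -0.062), Agpat9 -1.3 (adjusted p = 0.0174; 1.31 and 0.00384), Ero1l -0.839 (adjusted p = 0.0322; 0.878 and 0.0388) and Hsp90aa1 -0.624 (adjusted p = 0.0197; 0.347 and -0.277). Positive differences were those of Pdgfrb 1.67 (adjusted p = 0.0125; -1.09 and 0.585), Ptn 1.53 (adjusted p = 0.0344; -0.617 and 0.911), Tef 1.26 (adjusted p = 0.000874; -1.24 and 0.0234), Col1a1 1.14 (adjusted p = 0.0198; -0.785 and 0.355), Mmp14 1.03 (adjusted p = 0.00467; -2 and -0.974) and Adamts1 0.638 (adjusted p = 0.0219; -1.58 and -0.945).

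The 28 were not equally stable. With each library left out in turn, 18 kept an adjusted p below 0.05, and Adamts1, Btg2, Col1a1, Cxcl1, Ero1l, Gbp3, Hsp90aa1, Map1b, Oasl2 and Ptn did not. Their highest adjusted p in that case was 0.0614, 0.0942, 0.0581, 0.0589, 0.0806, 0.0538, 0.0565, 0.104, 0.0521 and 0.0878 in that order, reached without siControl+DFO replicate 1 or siNCOA4 replicate 2. The share of FPKM in small RNA was 29.2% to 32.7% at normal iron and 36.4% to 44.7% with DFO, and its part in these differences was not tested.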

How the results depend on the processing

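The fall of Ncoa4 passed under every alternative run, with changes from -2.83 to -1.95 and, with 1 library left out, from -2.77 to -2.63. The 186 called genes became 115 with a pseudocount of 1 and 1278 without the fold threshold, and between 136 and 174 with 1 library left out. The 1278 genes with an adjusted p below 0.05 became 843 without a mean-variance trend and between 579 and 958 with 1 library left out. The share of higher genes among the called was 37.1%, and 23.5% without siNCOA4 replicate 2; among the 1278 it was 35.6%, 43.2% with quantile scaling and 28.2%, 26.9% and 27.6% without siNCOA4 replicates 1, 2 and 3. With DFO, 249 called genes became 129 with a pseudocount of 1 and 1963 without the fold threshold. The 250 interactions became 165 with quantile scaling, 164 without a trend, and between 76 (without siControl+DFO replicate 1) and 292 with 1 library left out. The cause was not tested in any of these cases.

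A GC correction was added after seeing the data: 161 genes were called, 67 higher and 94 lower, and 1133 passed. Over the named genes, the other alternatives together gave 2639 values on the same side of the threshold, 454 that lost it, 6 that gained it and 13 that moved without a call; 0 of the values that passed reversed, whereas genes that did not pass, such as Tfrc (-0.12 to 0.08), crossed 0. Deviations of same-numbered libraries had r of -0.101, 0.0424 and 0.0395, and those of differently numbered ones -0.182 to 0.141. From 3 libraries a group, such values cannot decide whether the numbers pair the samples. With the replicate number as a block, 181 genes were called, 166 of them shared, and 1241 passed, 1061 of them shared. With 3 libraries a group and depth known only as a ratio, changes of low genes are the least certain.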
